A study of Mus musculus with 8 samples.

Results

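Loss of Tet1 and Tet3 was examined in mouse CD4 T cells activated with TGF-β as the only added differentiation cytokine, by comparing 2 libraries labelled Tet1/3 cDKO TGFb only with 2 labelled control TGFb only, which are 4 of the 8 libraries of the series. The assay was ATAC-seq, where a transposase cuts and tags accessible DNA, so that open chromatin appears as peaks of reads. Cells of every group came from spleen, were sorted as naive CD4 T cells, received antibodies to CD3 and CD28 with 20 ng/mL TGF-β, and were taken at 48 h, with 90000 cells per library. The 2 groups compared here received no added IL-2, and the other 4 libraries (control and cDKO with TGF-β plus 100 U of IL-2) serve below only as a check in separate samples. The control cells carry the label WT and the others a conditional double knockout (cDKO). The sources used here do not give the Cre driver, the deleted exons, the strain, the age of the mice or whether animals were pooled. The series text calls the replicates biological, but no label ties a library to an animal, and a p-value here reflects the spread of these libraries alone, which may be technical.

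TET enzymes oxidise methylated cytosine in DNA, a step on the way to its demethylation. In T cells they are known for keeping regulatory elements such as those of Foxp3 unmethylated. TGF-β drives activated CD4 T cells towards induced regulatory T cells, and IL-2, which activated T cells make themselves, supports that fate through STAT5.

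The deposited files are peak lists, with no read counts. Each list was cut to its 65811 peaks of highest −log10 p, and every region was given its rank in each list, where rank 1 is the strongest peak. A region was called higher in cDKO when both cDKO lists held it and neither control list did, and lower when the reverse held. A region outside the equal-length list may still have a weaker peak below it, and then its rank in the deposited list is given. Where all 4 lists held a region, the shift in log2 rank was tested with limma, and a positive shift means a stronger rank in cDKO. Coordinates are those of the deposited files on GRCm38.

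As examples of DNA under the changes at gene starts, the promoters of 5 called regions are printed from the RefSeq promoter table (GRCm38.p6, from 250 bases before to 50 after the start). They are not the 5 strongest calls. The promoter of Il2 is printed too, and was chosen for its gene after its values were seen. Capitals mark CG dinucleotides, the sites that can be methylated, and matches to TGANTCA, where N is any base. This pattern is the same on both strands. With C or G at N it gives the letters bound by AP-1 factors, and the match at Pde6h (TGAATCA) is not of that form. Pgk1 (chrX:106186850-106187149, plus strand) and Asns (chr6:7693160-7693459, minus strand) ranked higher in cDKO, and Pde6h (chr6:136954273-136954572, plus strand) was listed in cDKO but not in control. Il2 (chr3:37125905-37126204, minus strand) and Rdh1 (chr10:127759513-127759812, plus strand) were in both control lists of equal length and in no cDKO one, and Cgref1 (chr5:30945378-30945677, minus strand) ranked lower in cDKO.
Pgk1 promoter: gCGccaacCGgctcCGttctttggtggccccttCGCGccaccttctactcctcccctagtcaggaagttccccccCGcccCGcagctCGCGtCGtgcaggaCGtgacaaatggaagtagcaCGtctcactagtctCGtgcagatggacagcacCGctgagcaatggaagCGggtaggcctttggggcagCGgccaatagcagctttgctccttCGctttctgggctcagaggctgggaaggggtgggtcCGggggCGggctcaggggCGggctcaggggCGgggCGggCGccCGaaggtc
Asns promoter: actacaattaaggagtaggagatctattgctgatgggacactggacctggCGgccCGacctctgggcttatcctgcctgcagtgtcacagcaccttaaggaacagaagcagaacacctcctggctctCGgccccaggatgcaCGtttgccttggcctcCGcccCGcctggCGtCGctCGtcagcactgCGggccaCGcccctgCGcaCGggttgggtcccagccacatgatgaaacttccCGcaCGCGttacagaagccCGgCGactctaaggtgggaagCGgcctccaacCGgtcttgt
Pde6h promoter: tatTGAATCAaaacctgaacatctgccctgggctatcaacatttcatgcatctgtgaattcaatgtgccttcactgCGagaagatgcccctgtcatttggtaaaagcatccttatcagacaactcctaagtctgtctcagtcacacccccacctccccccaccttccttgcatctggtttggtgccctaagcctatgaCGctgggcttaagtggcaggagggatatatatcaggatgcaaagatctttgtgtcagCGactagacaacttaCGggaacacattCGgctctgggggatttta
Il2 promoter: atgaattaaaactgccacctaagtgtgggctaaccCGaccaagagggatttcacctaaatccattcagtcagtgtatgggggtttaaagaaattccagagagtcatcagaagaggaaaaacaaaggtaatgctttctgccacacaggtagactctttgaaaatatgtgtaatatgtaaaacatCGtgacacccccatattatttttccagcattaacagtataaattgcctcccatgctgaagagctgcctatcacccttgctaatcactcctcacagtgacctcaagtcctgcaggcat
Rdh1 promoter: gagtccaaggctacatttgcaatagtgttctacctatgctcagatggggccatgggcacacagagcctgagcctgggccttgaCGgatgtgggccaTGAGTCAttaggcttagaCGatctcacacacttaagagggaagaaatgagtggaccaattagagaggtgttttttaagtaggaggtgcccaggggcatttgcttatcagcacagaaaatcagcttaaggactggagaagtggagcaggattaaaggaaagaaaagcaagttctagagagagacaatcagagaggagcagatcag
Cgref1 promoter: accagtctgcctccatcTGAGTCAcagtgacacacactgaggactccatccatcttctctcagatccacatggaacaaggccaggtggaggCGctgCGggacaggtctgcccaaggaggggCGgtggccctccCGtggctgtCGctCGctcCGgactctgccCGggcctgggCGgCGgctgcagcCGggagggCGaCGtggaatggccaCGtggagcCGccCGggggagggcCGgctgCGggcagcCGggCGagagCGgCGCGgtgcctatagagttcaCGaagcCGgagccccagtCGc
The Pgk1 and Asns windows held 24 and 20 CG sites and no TGANTCA match. The Il2 and Rdh1 windows held 2 CG sites each, Pde6h held 5 and Cgref1 held 26. Of the 6 windows, Pde6h, Rdh1 and Cgref1 each held 1 TGANTCA match.

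The 4 libraries carried the marks of T cells. All 8 T cell marker genes (Cd3e, Cd3d, Cd3g, Cd247, Cd4, Cd28, Lck and Thy1) had at least 1 listed region at the gene in all 4 lists. Among markers of other cells, none of the 4 equal-length lists held a region within 1 kb of the body of Ms4a1 (B cells), Klra1, Klrk1, Ncr1 or Gzmk (CD8 and NK cells), Lyz2, S100a8 or Mpo (myeloid cells) or Hba-a1, Hba-a2, Hbb-bs or Alas2 (erythroid cells). Other such genes were listed in all 4 lists: 6 of the 10 B cell genes (Pax5, Ebf1 and Blk among them), 4 of the 11 CD8 and NK genes (such as Cd8b1), 6 of the 12 myeloid genes (such as Spi1, Itgam and Cebpa) and 5 of the 11 erythroid genes (such as Gata1 and Klf1). The part of other cells in the calls below was not tested. In all, regions at the 10 B cell genes numbered 21 to 22 in control and 21 to 28 in cDKO, those at the 11 CD8 and NK genes 5 in both control libraries and 7 to 8 in cDKO, those at the 12 myeloid genes 16 to 19 and 16 to 18, and those at the 11 erythroid genes 6 to 7 and 7. The deposited lists held 145979 and 92488 peaks in control and 96764 and 108842 in cDKO. An exact permutation test of such library values cannot pass with 2 libraries against 2, since its smallest two-sided p is 0.3333. The percent of listed regions at gene ends was 18.3 and 18.8 in control and 19.3 and 18.9 in cDKO, without overlap.

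Replicates resembled each other more than libraries of different genotype did. The Jaccard index, the share of the regions held by either list of a pair that both held, was 0.756 for the control pair and 0.796 for the cDKO pair, and 0.700 to 0.715 for the 4 pairs across genotypes. Across the 47575 regions that all 4 lists held, the Spearman correlation of ranks was 0.873 in control and 0.928 in cDKO, and 0.812 to 0.848 across genotypes, as a description over regions of the same libraries. By both measures the control pair was the looser of the 2 pairs.

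Without Tet1 and Tet3, similar numbers of regions were called higher and lower when lists of equal length were compared. Of 68580 regions that at least 2 of the 4 lists held, 3702 were higher (5.4%) and 4021 lower (5.86%) in cDKO. With the deposited lists left at their own lengths, the split was 2671 higher and 6835 lower. With a cDKO library left out, a higher call needs 1 listing library and a lower call 2. The split was then 7245 higher and 5662 lower without cDKO replicate 1 and 7110 and 6024 without cDKO replicate 2. With a control library left out the rule leans the other way. The split was 6243 and 7958 without control replicate 1 and 6806 and 8231 without control replicate 2. These settings therefore cannot show which way the balance leans. Most calls concerned weak peaks. The weaker of the 2 listing ranks had a median of 57655 among higher and 55700 among lower regions, out of 65811, and 55.6% of higher and 46.9% of lower regions did hold a peak in both deposited lists of the other genotype. Of the 11716 regions that exactly 2 lists held, the only ones such a call can take, 31.6% were higher and 34.3% lower, and the other 3993 had 1 list of each genotype.

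A smaller group held no peak at any rank in the other genotype. These full-list calls numbered 216 higher (0.315%) and 932 lower (1.36%). The deposited list of control replicate 1 was the longest of the 4, and its part in the smaller number of higher regions was not tested.

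The strongest full-list gain lay 17.2 kb upstream of the start of Bcat1, which encodes a branched-chain amino acid transaminase of the cytosol (chr6:145093014-145093770). It ranked 4898 and 5829 in the 2 cDKO libraries, with an authors' fold over background of 12.5 and 11.3, and was in neither deposited control list. Next to it, chr6:145090972-145091304 ranked 36249 and 35049 in cDKO and was likewise missing from control. Of 16 tested regions assigned to Bcat1, 6 were higher and none lower. The broad region over the Bcat1 start (chr6:145075004-145076243) moved the other way: it ranked 16503 and 13175 in control and 44767 and 33636 in cDKO, a shift of -1.40 (limma, adjusted p = 0.0194). Bcat1 thus had calls in opposite directions upstream and at its start.

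Other gains of this kind lay at genes of diverse function. Those at Pde6h, Pdzrn3, Aak1 and Hrh1 lay on chromosome 6, like both Bcat1 regions missing from control, and those at Fbln1, Iqcj, Ndrg3 and Hnrnpab did not. Chromosome 6 holds 5.48% of tested regions. At Pde6h, which encodes the inhibitory subunit of the cone phosphodiesterase, the region over the promoter shown above ranked 20409 and 31852 in cDKO. A region inside Fbln1, which encodes the matrix protein fibulin-1, ranked 29793 and 30207 (chr15:85243906-85244275). Regions inside the ubiquitin ligase gene Pdzrn3 (32924 and 31919), Iqcj (35245 and 34253) and Ndrg3 (38596 and 34800), upstream of the RNA-binding protein gene Hnrnpab (34293 and 33380) and the endocytic kinase gene Aak1 (31144 and 35438), and near the histamine receptor gene Hrh1 (33254 and 25420) completed the 10 strongest. By the rule that chose them, the control lists held no peak at any of the 10.

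The full-list losses described here are 9 of the 10 strongest. On chromosome 6, regions 21.0 kb from Med21, a Mediator subunit gene, ranked 20359 and 21276, inside Tm7sf3 25168 and 23015, upstream of the kinase gene Stk38l 20190 and 25361, and inside Lrmp 21848 and 26029 in control. On other chromosomes, the losses included regions inside Ncam2, a neural adhesion gene (12509 and 23408), inside Auh (24662 and 24141), near Otud7a (22505 and 24866), inside Rala, a small GTPase gene (27354 and 26002), and 47.5 kb from Cables1 (12459 and 27717). Every control rank of these 9 regions was 27717 or better, and no cDKO list held any of them.

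**Figure D1:**
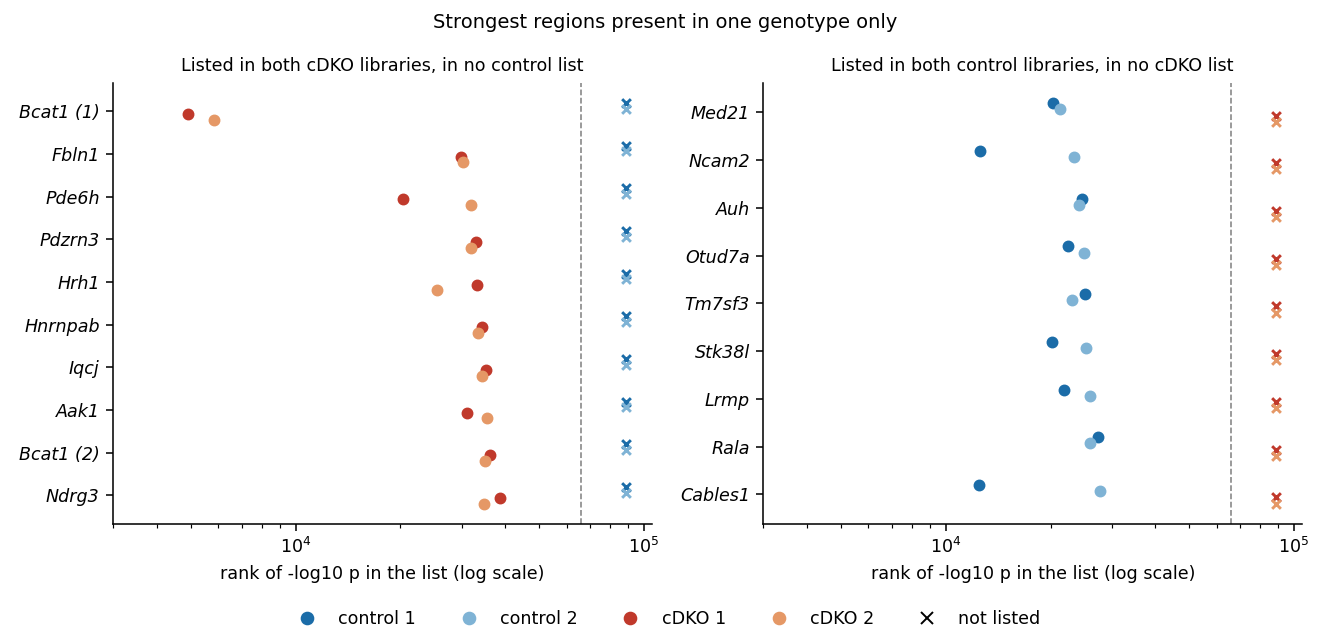
Ranks of the 10 strongest full-list gains (left) and of 9 of the 10 strongest losses (right) in each of the 4 libraries, on a log axis where smaller is stronger; crosses mark lists with no peak and the dashed line is the list length of 65811. The region upstream of Bcat1 (ranks 4898 and 5829) has the smallest pair of ranks in its panel, and the losses shown all have control ranks of 27717 or better.

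Some of the strongest contrasts kept a weak peak on the other side. These were chosen after their values were seen. A region 36.8 kb from Otud7a (chr7:63802725-63803274) ranked 2463 and 2582 in control, was missing from the first cDKO list and ranked 70001 in the second. A region inside Eps8, which encodes an actin regulator (chr6:137541325-137541959), ranked 5550 and 5324 in cDKO, was missing from the first control list and ranked 84706 in the second. Both are therefore large differences in rank between the genotypes.

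Regions present in all 4 lists also moved. Of 47575, 415 ranked higher (0.872%) and 830 lower (1.74%) in cDKO (limma, adjusted p under 0.05), with median shifts of 1.29 and -1.43 on the log2 rank scale. The ranks of the 2 genotypes did not overlap at any of the 415 or the 830. The test that chose these regions used the same ranks, so this adds no support. The share of all 47575 regions without overlap is not given here. The counts rest on the spread that limma borrows across regions: without its intensity trend 2 and 2 regions passed, and of the 16 regions named below as the leading shifts 14 no longer did. With 1 library left out, the spread comes only from the genotype that keeps both of its libraries. Such fits cannot show which genotype's libraries the counts rest on.

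The largest upward shift of all was at the start of Pgk1, which encodes the glycolytic enzyme phosphoglycerate kinase. The region over its promoter (chrX:106186581-106187365) ranked 2294 and 3856 in control and 83 and 91 in cDKO, a shift of 5.10 ± 0.851 (SE; limma, adjusted p = 0.00382). The Pgk1 promoter is also a common part of gene-targeting cassettes. The sources used here do not say how the alleles were built, and the part of such a cassette was not tested. When peaks were ranked by fold in place of −log10 p, the Pgk1 shift was 1.82 and did not pass (limma, adjusted p = 0.348). At Asns, which encodes asparagine synthetase, the region over the start (chr6:7692574-7693472) ranked 41970 and 35697 in control and 9236 and 10811 in cDKO, a shift of 1.95 ± 0.332 (SE; limma, adjusted p = 0.00406). Without cDKO replicate 1 the Asns shift was 1.84 (limma, adjusted p = 0.0634). Both control ranks were weaker than both cDKO ranks at each promoter.

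Away from starts, the region of smallest adjusted p that gained lay 0.986 kb from Arhgap25, a GTPase-activating protein gene of blood cells (chr6:87457013-87458103). It ranked 60012 and 37616 in control and 8331 and 9282 in cDKO, a shift of 2.43 ± 0.340 (SE; limma, adjusted p = 0.00149). Regions near Zdhhc21, near Frmd8, inside the proton channel gene Hvcn1, inside Acot11 and at a site on chromosome 15 with no gene within 100 kb shifted by 1.86 to 2.19. Without cDKO replicate 2 the Acot11 shift was 1.64 (limma, adjusted p = 0.0754). The control and cDKO ranks of these regions did not overlap, as at every region that passed.

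Among regions that fell, the smallest adjusted p was at Slc37a3, a sugar-phosphate transporter family gene. The region 0.379 kb outside the gene (chr6:39334102-39334680) ranked 1992 and 2370 in control and 27318 and 32010 in cDKO, a shift of -3.77 ± 0.433 (SE; limma, adjusted p = 0.000439). Inside Prkcq, which encodes protein kinase C theta of the T cell receptor pathway, chr2:11181557-11181897 ranked 9520 and 14492 in control and 62419 and 60916 in cDKO, a shift of -2.39 (limma, adjusted p = 0.00135). Both regions ranked far weaker in both cDKO libraries than in both control libraries.

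Foxp1, which encodes a forkhead factor of naive T cell quiescence, fell in rank at 3 regions. The strongest of them (chr6:99350325-99350983) ranked 2833 and 3600 in control and 26749 and 27464 in cDKO, a shift of -3.09 (limma, adjusted p = 0.00135, and 0.0516 when ranked by fold). At the other 2 regions the shifts were -2.30 (limma, adjusted p = 0.00382) and -1.66 (limma, adjusted p = 0.00595). Of the 65 tested Foxp1 regions, 7 more were lower by presence and 2 higher. Single regions inside Epg5, Poli and Susd1, upstream of Il33 and near S100a10 fell by 2.08 to 2.87 on the log2 rank scale.

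**Figure D2:**
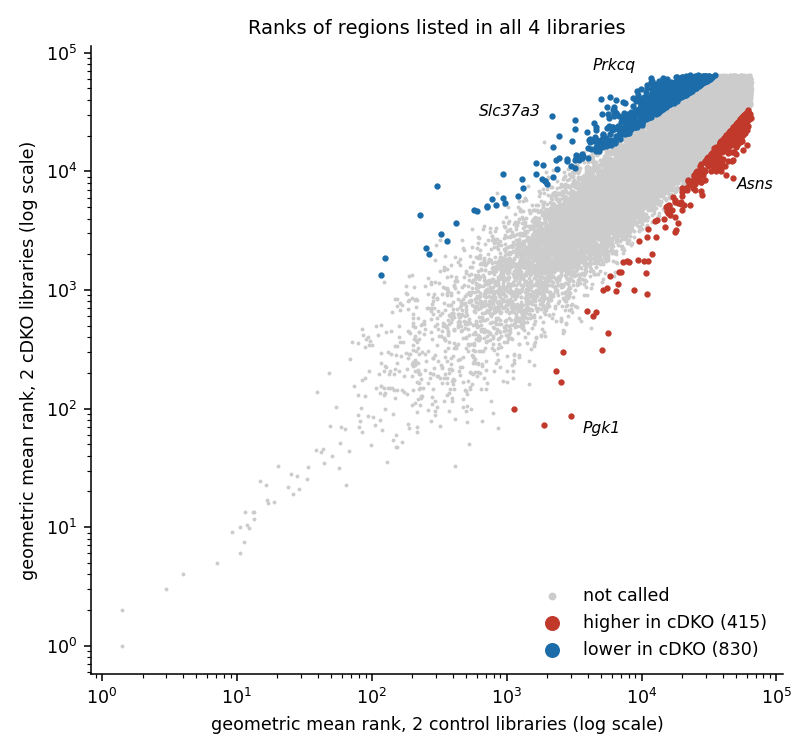
Geometric mean rank in the 2 control libraries against that in the 2 cDKO libraries for the 47575 regions of all 4 lists, on log axes where smaller is stronger. Regions ranked higher in cDKO (415, red) lie below the cloud and regions ranked lower (830, blue) above it; the Pgk1 promoter reaches ranks 83 and 91 in cDKO.

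At the deleted genes the lists showed no call in Tet1 and calls in both directions in Tet3. Tet1 had 7 tested regions, 6 of them in all 4 lists, with shifts from -0.50 to 0.91 and none past the test. Inside Tet3, chr6:83421630-83422134 ranked 47523 and 34178 and chr6:83428244-83428689 43767 and 39179 in cDKO, with neither in the equal-length control lists. In the other direction, chr6:83405404-83406065 ranked 47129 and 40088 in control, and chr6:83410129-83410300, at 63037 and 60230, with neither in the equal-length cDKO lists. Since the deleted exons are not known, these regions do not check the deletion. In Tet2, the family member that was not deleted, chr3:133518707-133519333 ranked 29405 and 27126 in cDKO and 122550 and 71227 in the deposited control lists. Upstream of it, chr3:133555370-133555921 ranked 15757 and 13526 in control and 37324 and 37044 in cDKO, a shift of -1.35 (limma, adjusted p = 0.0215). Tet2 thus gained a region inside the gene and weakened at another, 10.5 kb outside it.

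At Il2, which encodes the growth factor of activated T cells, the promoter region was called lower. The region over the start (chr3:37125756-37126075, the promoter shown above) ranked 38215 and 53339 in control and stood outside the equal-length cDKO lists, at 81976 and 73205 of the deposited ones. Its neighbour 2.48 kb upstream (chr3:37128160-37128717) ranked 4944 and 9798 in control and 20512 and 21670 in cDKO, a shift of -1.60 ± 0.408 (SE; limma, adjusted p = 0.0358). Farther out, chr3:37171000-37171772 ranked 50624 and 45531 in control and was missing or at 104305 in cDKO. The other regions of Il2 in all 4 lists were within -0.90 and 0.31 and did not pass the test. Of 9 tested Il2 regions 3 were thus called lower by either measure and 0 higher.

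At Il2ra, the gene of the IL-2 receptor α chain (CD25), upstream regions went both ways. The region 12.9 kb upstream (chr2:11629633-11630115) ranked 18859 and 36800 in control and 85412 and 97360 in the deposited cDKO lists. A region 14.4 kb upstream (chr2:11628237-11628630) moved the other way, from 63150 and 58672 in control to 25556 and 19311 in cDKO, a shift of 1.45 ± 0.271 (SE; limma, adjusted p = 0.00685). Inside the gene, chr2:11691161-11691476 was lower by presence (59539 and 41874 in control). In all, 16 Il2ra regions were tested.

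Foxp3, whose product defines regulatory T cells, gave a single tested region, inside the gene (chrX:7586226-7586968). It ranked 57717 and 47592 in control and 36422 and 45095 in cDKO, a shift of 0.37 ± 0.248 (SE; limma, adjusted p = 0.491). That difference did not pass the test. The 20 genes of the regulatory T cell list, which were chosen with earlier results of these data known like every list here, had 9 higher and 11 lower regions of 202 tested, or 4.46% and 5.45%, beside the background of 5.4% and 5.86%. With lists of 32905 peaks they were 17 and 5 (all regions 1909 and 2065). Without cDKO replicate 1, which by the rule eases higher calls, they were 19 and 12 (all regions 7245 and 5662). Ctla4, which encodes an inhibitory receptor, had 1 lower region 9.55 kb upstream (62517 and 52244 in control). A region 35.6 kb upstream of it gained rank, from 41251 and 36205 to 18136 and 17607 (shift 1.11; limma, adjusted p = 0.0468). Ikzf2, which encodes Helios, had 1 higher region and 2 regions that rose in rank, the larger shift being 1.38, and 1 that fell by 1.19 on the log2 rank scale (limma, adjusted p of 0.0204 to 0.0263).

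The signalling lists also had calls in both directions. For IL-2 and STAT5 genes 9 of 165 regions were higher (5.45%) and 11 lower (6.67%), near the 5.4% and 5.86% over all regions. Gains lay at Socs2, Stat5b, Myc and Jak1 and losses at Il2ra, Stat5b, Bcl2 and Socs3. Of 244 regions at TGF-β and SMAD genes 10 were higher (4.10%) and 19 lower (7.79%). With lists of 32905 peaks these were 11 and 10. Without cDKO replicate 1, which by the rule eases higher calls, they were 23 and 23 (all regions 7245 and 5662). The losses lay inside Tgfbr2, the type II receptor gene (37601 and 38312 in control), inside the repressor gene Ski (43744 and 43766), inside Smad3, the signal transducer (24021 and 46535), and inside the ubiquitin ligase gene Smurf1 (46878 and 32718). Tgfbr2 and Smad3 also had a gain each, at 57975 and 52481 and at 47267 and 48051 in cDKO. Genes of the T cell receptor complex and its signalling had 9 higher (3.86%) and 19 lower (8.15%) of 233 regions, with losses at Thy1, Cd2 and Prkcq among others. TCR-induced genes had 9 (3.95%) and 11 (4.82%) of 228.

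Genes of naive and memory T cells had the most called regions of the 18 lists, with 21 higher (5.83%) and 32 lower (8.89%) of 360 tested. Of the 360, 11 were lower and 0 higher as full-list calls, where the background was 1.36% and 0.315%. Inside Satb1, which encodes a chromatin organiser, chr17:51763262-51763974 fell from 3617 and 5889 in control to 26473 and 21181 in cDKO, a shift of -2.36 ± 0.414 (SE; limma, adjusted p = 0.00514). Lef1, which encodes a TCF-family factor, had 4 lower regions and 1 higher of 23, the strongest loss at chr3:131146814-131147039 (26548 and 52099 in control), and Tcf7 had 2 of each of 17. Bach2, which encodes a repressor of effector genes, had 6 higher and 4 lower of 58, and 2 of its regions rose in rank, by 1.04 and 1.25 (limma, adjusted p of 0.0425 and 0.0429). Gains also lay near Ccr7 (31570 and 31887 in cDKO) and near Cd27 (37303 and 39604). Of its genes 7 had regions called in each direction. With lists of 32905 peaks its calls were 13 higher and 11 lower, so the larger number of losses depends on list length.

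Among helper fates, the Th1 and cytotoxic list had 12 higher (7.89%) and 4 lower (2.63%) of 152 regions. With the deposited lists left at their own lengths it had 6 of each, where all regions had 2671 higher and 6835 lower. With lists of 32905 peaks it had 10 higher and 7 lower (all regions 1909 and 2065). With lists of 92488 peaks it had 15 and 6 (all regions 4884 and 5176). Lower calls thus did not outnumber higher ones at any of these list lengths. A region 11.7 kb upstream of Runx3, which encodes a factor of cytotoxic and Th1 cells, ranked 27332 and 28202 in cDKO. Near Eomes, a T-box factor gene, chr9:118405075-118405736 ranked 34191 and 27939, and near the chemokine gene Ccl5 a region ranked 42847 and 44559. At Ifng, the gene of interferon gamma, chr10:118468777-118469517 rose from 13829 and 9151 in control to 2690 and 3991 in cDKO, a shift of 1.78 (limma, adjusted p = 0.047). Regions at Ccl5 and Gzmb rose too, by 1.19 (limma, adjusted p = 0.0169) and 1.16 (limma, adjusted p = 0.0252). The losses by presence lay at Il18rap, Klrg1, Ifng and Eomes. Its median shift was 0.05 against 0.04 over all regions.

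The Ifng region of chromosome 10 also holds Il22 and its copy Iltifb, which encode cytokines of the IL-10 family. Taken after their values were seen, the 3 genes had 9 higher and 1 lower of 39 tested regions. Iltifb alone had 6 higher of 13, the strongest at chr10:118283063-118283419 (23751 and 17262 in cDKO), and Il22 had 2 of 5. None of these was a full-list call. Because Il22 and Iltifb are near copies, reads may be split between them, so calls there are uncertain.

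The remaining lists had at most 17 calls in 1 direction. Th17 genes had 9 higher and 9 lower of 174 (5.17% each), with a gain near Il22 (39171 and 30708 in cDKO). Tfh genes had 6 (6.06%) and 8 (8.08%) of 99. Th2 genes had 2 (2.94%) and 5 (7.35%) of 68, with a loss near Il1rl1, the IL-33 receptor gene (20778 and 31641 in control). Genes of DNA methylation had 6 (6.06%) and 7 (7.07%) of 99, with a full-list loss inside Dnmt1, the maintenance methyltransferase gene (43153 and 51938 in control). RUNX, ETS, E protein and Ikaros genes had 13 (4.33%) and 17 (5.67%) of 300. Glucose and amino acid genes had 10 (8%) and 5 (4%) of 125, of which 6 gains were at Bcat1. Of 13 regions at germline genes normally silenced by methylation, 1 was higher (7.69%) and 2 were lower (15.4%). The gain was at Slc25a31, 0.953 kb downstream of its start (56314 and 37459 in cDKO, absent from both deposited control lists). Myeloid and dendritic genes had 5 higher (9.09%) and 10 lower (18.2%) of 55 regions, the highest lower share of the 18 lists. With the deposited lists left at their own lengths these were 1 and 4 (all regions 2671 and 6835). With lists of 32905 peaks they were 2 and 1 (all regions 1909 and 2065), so the number of losses depends on list length. With a library left out, 10 to 13 were lower. None of the 29 myeloid and dendritic regions in all 4 lists passed the rank test. B cell genes had 4 (13.8%) and 2 (6.90%) of 29, CD8 and NK cell genes 3 (12.5%) and 0 of 24, and erythroid genes 1 and 1 of 12 (8.33% each), beside 5.4% and 5.86% over all regions.

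**Figure D3:**
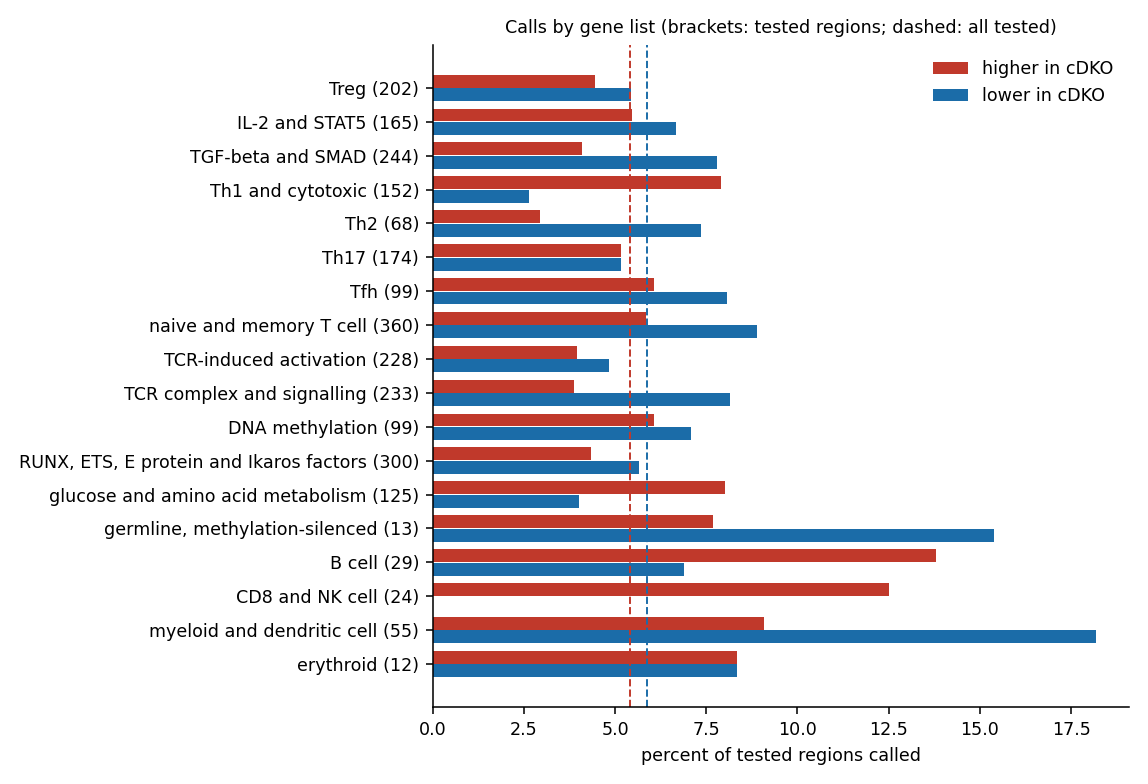
Percent of tested regions called higher (red) and lower (blue) in cDKO for each of the 18 gene lists, with the number of tested regions in brackets; dashed lines give the same over all 68580 tested regions (5.4% and 5.86%). The Th1 and cytotoxic list has 7.89% higher and 2.63% lower, and the naive and memory list 5.83% and 8.89%; bars of lists with few regions rest on 0 to 10 calls.

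Several genes gathered many called regions. Hrh1 had 7 higher and 0 lower of 9 tested, and its neighbour Atg7, an autophagy gene, 6 higher and 2 lower of 29; of these 13 gains 8 were full-list calls. On the side of losses, Nav2 had 10 lower and 0 higher of 36, all 10 inside the gene. Rptor, which encodes the mTORC1 subunit raptor, had 7 lower and 3 higher of 22, and chr11:119644241-119644498 within it ranked 21956 and 24305 in control. Mbp had 6 lower of 26 and Tle4, which encodes a Groucho-family corepressor, 6 lower and 1 higher of 27.

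Chromosome 6, which carries Tet3, had the highest share of calls of any chromosome in 4 of 6 measures (higher by presence, full-list calls in both directions and higher by rank). Of its 3755 tested regions 7.54% were higher, against 3.69% to 5.94% on the others, and 6.39% lower, against 4.43% to 7.65%. Full-list calls stood out more: 0.985% higher and 2.21% lower on chromosome 6, against at most 0.401% and 1.99% elsewhere. Of all 216 full-list gains 37 (17.1%), and of 932 losses 83 (8.91%), lay there, where 5.48% of tested regions lie. On chromosome 10, which carries Tet1, 5.30% were higher and 6.24% lower, near the shares over all chromosomes. In bins of 5 Mb with at least 20 tested regions, the median share called was 11.2% over 476 bins. Chromosome 6 had 33.1% at 135 to 140 Mb, the highest of all bins, and 23.6% at 145 to 150 Mb, while the bins that hold Tet3 and lie next to it, at 80 to 85 and 85 to 90 Mb, had 12.3% and 17.1%. The Bcat1, Med21 and Pde6h regions above lie in the bins with 33.1% and 23.6%. The strain is not known, and the part of strain DNA on this chromosome was not tested.

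**Figure D4:**
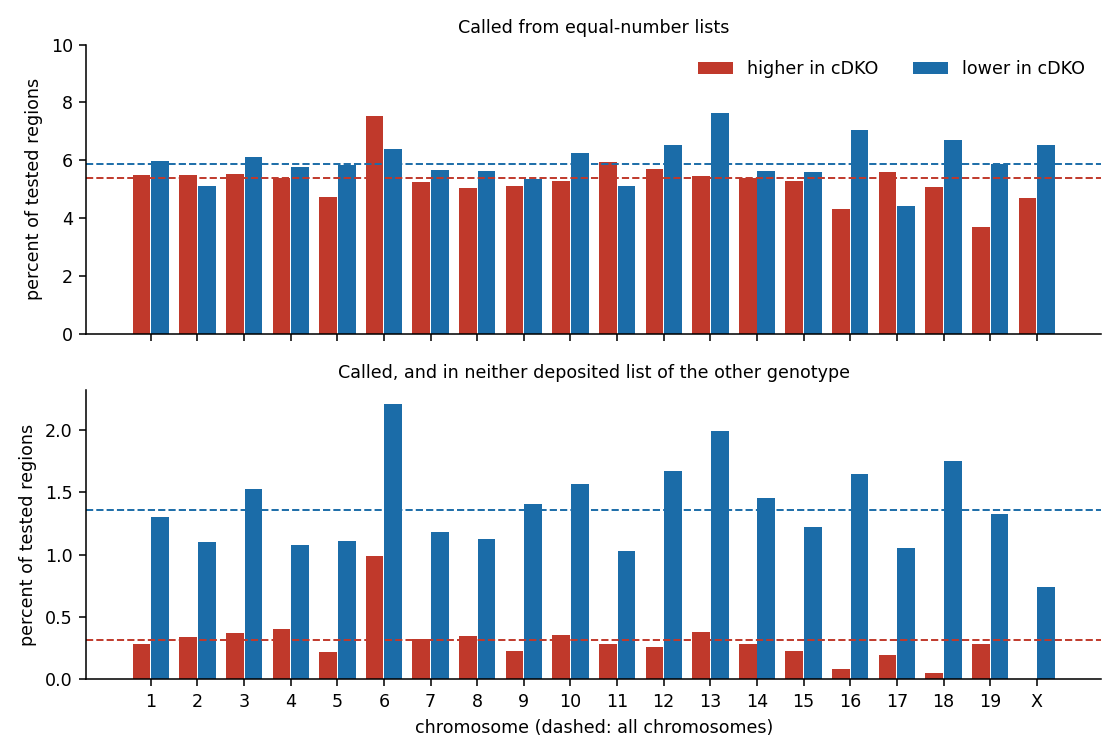
Percent of tested regions called higher (red) and lower (blue) in cDKO on each chromosome, from equal-length lists (top) and as full-list calls (bottom), with dashed lines for all chromosomes. Chromosome 6 has the tallest red bar in both panels, 7.54% and 0.985%.

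**Figure D5:**
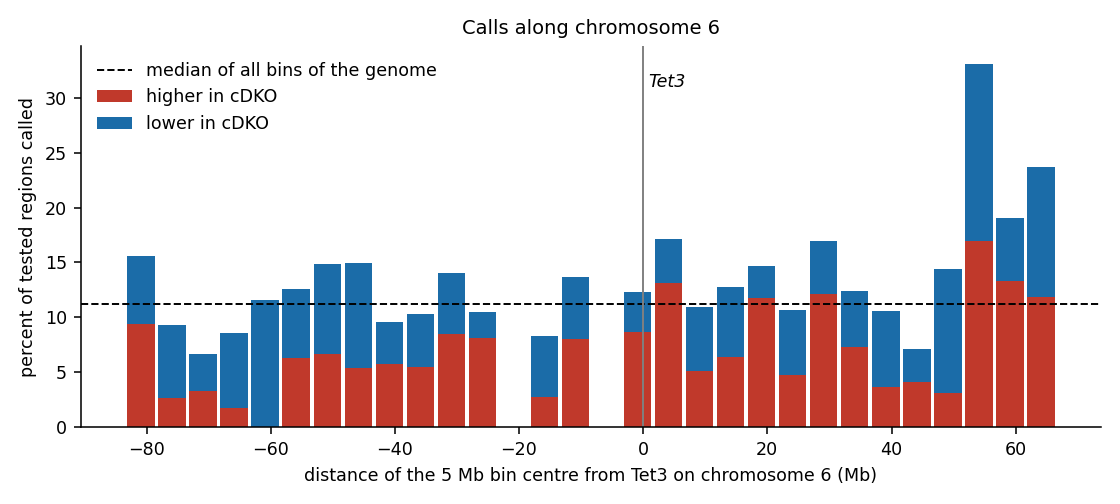
Percent of tested regions called in 5 Mb bins of chromosome 6 with at least 20 tested regions, by distance of the bin's centre from Tet3, stacked as higher (red) and lower (blue); the dashed line is the median of all bins of the genome, 11.2%. The highest bin, with 33.1% called, lies more than 50 Mb from Tet3.

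A smaller share of losses than of gains lay at the ends of genes by presence and by rank, but not among full-list calls. This is a description with no test. Of all tested regions 18.1% were no farther than 1 kb from a gene's start or end, but of the regions held by 1 list of each genotype, which are also mostly weak peaks, 8.34% were. Among higher regions the share was 8.10% and among lower regions 3.95%. In the rank test it was 11.6% of regions that rose and 3.73% of those that fell, against 23.0% of all regions in 4 lists. Among full-list calls it was 3.70% of the 216 gains and 3.86% of the 932 losses. As given above, the share of all listed regions at gene ends was itself higher in both cDKO libraries, by less than 1 percentage point. Gains at gene ends were led by the calcium channel gene Cacnb1, the homeobox gene Dlx4, Gm960, the potassium channel gene Kcnk12 and the protease gene Bace2, with cDKO ranks of 24714 to 36964. Losses were led by Peli1, which encodes an E3 ubiquitin ligase (7831 and 25185 in control), the glucosylceramide synthase gene Ugcg, BC049715, Aknad1 and 1110002E22Rik. For presence calls, the share at gene ends was lower among losses than among gains in each of the 7 other settings of list length or left-out library.

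Promoters under losses held fewer CG sites than those under gains, again as a description. RefSeq windows overlapped 127 higher and 55 lower regions by at least 150 bp, with a median of 5 and 1.67 CG sites per 100 bp, against 7 at the 9980 promoters in tested regions and 4.67 at the 313 in regions of exactly 2 lists. At Rdh1, a retinol dehydrogenase family gene, the region ranked 34402 and 36302 in control and 69806 and 85114 in the deposited cDKO lists. At Cgref1, a growth regulator gene, it ranked 20885 and 22110 in control and 51781 and 61768 in cDKO, a shift of -1.40 ± 0.272 (SE; limma, adjusted p = 0.00884). Both control ranks were stronger than both cDKO ranks at these 2 promoters printed above. Among promoters that moved in rank, the 42 that rose had a median of 6.5 and the 21 that fell 2.67, against 7.33 at the 9331 promoters in regions of all 4 lists. The letters TGANTCA, searched on both strands, were in 23.6% of the windows at lower regions and 3.94% at higher ones. These shares take any base at N, so they also count matches that are not AP-1 letters. They were in 47.6% of the windows that fell in rank and 2.38% of those that rose. Of all 32817 RefSeq promoters 7.81% hold them, of those in tested regions 5.21% and of those in regions of all 4 lists 4.95%. For the presence calls the nearer background is the 313 promoters in regions of exactly 2 lists, of which 8.63% hold them. The KLF and SP letters GGGGCGGGG were in 42.9% of the windows that rose in rank and 4.76% of those that fell, against 11.4% of all promoters, 23.1% of those in tested regions and 23.5% of those in regions of all 4 lists. By presence they were in 15.7% of the windows at higher and 7.27% at lower regions. Both are under the 23.1%, and under the 18.8% of the 313 in regions of exactly 2 lists. The other 10 motifs searched, such as RUNX (TGTGGT, 16.5% of higher and 18.2% of lower windows), are descriptions of few promoters too, and a match is no sign that a factor was bound.

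The libraries with IL-2 were used in no call above, except that they set the common list length and region borders. In them, far more of the called regions leaned the same way than the opposite way. Of the 3702 higher regions, 51.3% were in more cDKO than control lists with IL-2 and 6.70% in fewer, against 16% and 10.4% of all tested regions. Many of the tested regions are strong peaks in every list. Among the 3993 held by 1 list of each genotype without IL-2, a nearer background, 31.2% were in more cDKO lists and 23.0% in more control lists. Of the 4021 lower regions, 60.4% were in more control lists and 6.24% in more cDKO lists. For full-list calls the counts were 83 and 2 of 216 gains and 676 and 14 of 932 losses. Of the 415 regions that rose in rank, 274 were in all 8 lists, and the shift with IL-2 was positive at 269 of them. Of the 830 that fell, 729 were, and it was negative at 704. Over all 40694 regions of the 8 lists that shift was positive at 53.5%. Genotype and mouse line cannot be told apart in either arm.

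By the same presence rule the IL-2 libraries gave 5.1% higher and 5.62% lower calls of their own. Of the 10 strongest full-list gains 6, and of the 9 losses named above 7, were called the same way there. The Bcat1 region ranked 5020 and 11043 in cDKO with IL-2 and was missing in control. At the Pgk1 promoter the ranks with IL-2 were 1791 and 1981 in control and 339 and 161 in cDKO. The Il2 promoter region was in none of the 4 deposited lists with IL-2. The Il2ra region 12.9 kb upstream was in all 4 lists with IL-2, at 13903 and 12674 in control and 17142 and 19350 in cDKO. The difference between arms was not tested for these 2 regions, which are not in all 8 lists. A test of the difference between arms over the 40694 regions of all 8 lists gave 0 calls (0%; limma, smallest adjusted p = 0.999), with 1723 regions at an unadjusted p under 0.05 (4.23%).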

How the data were processed

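ATAC-seq peak lists of 8 libraries were used, 2 for each of control and Tet1/3 cDKO with TGF-β alone and with TGF-β plus IL-2. The members, gene lists and tests were chosen with earlier results of these data known. Per the submitters' processing notes, which give no role or order, MACS2 2.2.7.1, Bowtie2 2.4.1, HOMER 4.11.1, ChIPseeker 1.18.0, DiffBind 2.10.0, Trimmomatic 0.39, SAMtools 1.3.1 and Picard were used with GRCm38. Peak-calling settings, read shifting and the number of reads are not stated by the labels, so the depth behind each peak is unknown and no counting interval is given. The deposited peak lists hold, as the authors' peak caller wrote them, a fold (ratio) over local background, the −log10 of a p-value and the −log10 of a q-value. The deposited score column and the summit offset were not used. Peaks were called per library, per the labels, which tie 1 list to each library.

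Each list was cut to 65811 peaks, the length of the shortest of the 8, by −log10 p. All deposited peaks overlapping by 1 bp were merged into 175276 regions (median 250 bp). A region was tested when 2 of the 4 lists held it, and called when both lists of one genotype and neither of the other did. In 47575 regions of all 4 lists, −log2 rank was tested with limma 3.58.1 (intensity trend, Benjamini-Hochberg adjusted p under 0.05, R 4.3.3). Genes were the smallest RefSeq gene body (of 21900 protein-coding genes) holding the region's midpoint, else the nearest within 100 kb. Of 281 genes in 18 lists 279 matched. Named were 12 genes fixed by name (the Tet genes, Foxp3, Il2ra, Il2, Ctla4, Ikzf2, Tcf7, Lef1, Satb1 and Bach2) and, per direction, the 10 full-list calls of smallest weaker rank, up to 4 genes per list, the 5 genes with most called regions, the 8 rank shifts of smallest adjusted p and the 5 strongest regions at gene ends. Any other region named was chosen after its values were seen. Promoter windows had to overlap a region by 150 bp, and 12 motifs were searched. The calls and the rank test were also run on simulated data. The outcome is not given here, and no result above rests on it. For the rank test, the simulated shifts were larger than the median shifts found here. Python 3.11.15, pandas 2.3.3, numpy 2.4.6, scipy 1.17.1 and matplotlib 3.10.9 were used. Alternatives were other list lengths, merging, overlap, ranking by fold, no trend, a replicate block and leaving out each library. Results of some genes that the naming rule picks are not reported here.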

Additional observations from a re-analysis of the deposited data

Results flagged for a closer look

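Of the regions called by presence in both arms, 1750 were called in the same direction with and without IL-2 and 40 in opposite directions, which is why they are listed here; the difference was not tested. Of these 40, 16 were higher in cDKO without IL-2 and lower with it, and 24 were the reverse. Inside Myo10, which encodes an unconventional myosin, chr15:25768858-25769271 ranked 42504 and 35774 in cDKO without IL-2, and 63528 and 45262 in control with IL-2. Inside Kdm5c, which encodes a histone demethylase, chrX:152241064-152241318 ranked 45886 and 44416 in control without IL-2, and 50384 and 60615 in cDKO with IL-2. The Myo10 region also had peaks below the equal-length lists, at 69032 and 66209 in control without IL-2 and 69955 and 74138 in cDKO with IL-2. The Kdm5c region had them at 65942 and 84062 in cDKO without IL-2 and at 68318 in control replicate 1 with IL-2. Control replicate 2 with IL-2 held no peak there, and its deposited list ends at 65811.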

How the results depend on the processing

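No named call or shift changed sign under the alternatives run. Leaving out a cDKO library, which by the rule eases higher calls, gave 7245 higher and 5662 lower without replicate 1 and 7110 and 6024 without replicate 2. Leaving out a control library, which eases lower calls, gave 6243 and 7958 without replicate 1 and 6806 and 8231 without replicate 2. The balance of higher and lower calls turned for the regulatory T cell (17 and 5), naive and memory (13 and 11) and TGF-β (11 and 10) lists with 32905 peaks, among others. With lists of 32905 peaks, 1909 regions were higher and 2065 lower, 5.92% of the higher ones lay on chromosome 6, and 12.7% of higher and 4.75% of lower regions lay at gene ends. With uncut lists 6835 were lower, as at a −log10 q of 2 or more, 8.99% of higher regions lay on chromosome 6, 6.48% of higher and 4.70% of lower ones at gene ends, and 1144 regions rose and 1914 fell in rank. With lists of 92488 peaks 789 rose and 1530 fell, and 6.57% of higher regions lay at gene ends. Ranking by fold gave 158 and 416 rank shifts, and no intensity trend 2 and 2. Leaving out 1 library at a time gave 6243 to 7245 higher and 5662 to 8231 lower calls, as a call then needs 1 list fewer, 32 to 1609 and 40 to 2657 rank shifts, 6.62% to 6.98% of higher regions on chromosome 6, and 7.18% to 9.89% and 4.0% to 5.20% of higher and lower regions at gene ends. The cause of the changes in rank-shift counts was not tested.

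The labels do not say whether the replicate numbers pair the samples. The replicate differences of the 2 genotypes showed almost no correlation over regions (r = -0.0388), which cannot show whether samples shared an animal, day or batch. With the number as a replicate block, 707 regions rose and 1278 fell in rank, and the 16 leading shifts still passed. Of the 162 named presence calls, 25 held with lists of 32905 peaks, 41 with uncut lists, 54 with 92488 peaks, 92 when taken by fold, 127 when a peak had to cover 50% of the region and 160 when only the 4 lists were merged. With 2 libraries a group and no read counts, a region near the end of a list cannot be told from one just past it.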
